A study of Homo sapiens with 18 samples.

Results

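Meiotic chromosome genes encode proteins that hold and pair chromosomes in meiosis. The 10 genes described here are SYCP1, SYCP2, SYCP3, SYCE1 and SYCE2 of the synaptonemal complex, the meiotic cohesin subunits SMC1B, STAG3 and REC8, the axis protein HORMAD1 and the germ cell RNA-binding protein DAZL. They were chosen by name, and all 10 were found among the 23571 named genes of an RNA sequencing table of SW48, a human cell line established from a colon adenocarcinoma. The table holds 18 libraries in 6 groups of 3, and its values are FPKM, the fragments of a gene scaled by its length and by the depth of the library. The groups crossed siRNA against CHD4 (siCHD4), a chromatin remodeller of the NuRD corepressor complex, or a control siRNA, with 3 backgrounds.

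With siDNMT1, an siRNA against the maintenance DNA methyltransferase, the groups were siCHD4 plus siDNMT1 and control siRNA plus siDNMT1. Cells of both received siDNMT1 on days 1, 3 and 5 and the test siRNA on days 7 and 8, and RNA was extracted on day 11. With decitabine, a cytidine analogue that traps DNA methyltransferases on DNA, the groups were siCHD4 plus decitabine and control siRNA plus decitabine. There the drug, at 50 nM, was added on days 1, 2 and 3 and the test siRNA on days 1 and 2, and the RNA was taken from day 5. The groups with no such background were siCHD4 alone and control siRNA alone, with siRNA on days 1, 3 and 6 and RNA from day 8. The siCHD4 groups shared a schedule with the control of their own background. Every comparison with control siRNA alone also differed in schedule, and there the treatment and its schedule cannot be told apart. Nothing in the labels ties the 3 libraries of a group to separate cultures, and the p-values therefore reflect spread among libraries that may be technical.

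In meiosis, cohesin rings that carry REC8, SMC1B and STAG3 hold sister chromatids along an axis that also contains SYCP2, SYCP3 and HORMAD1. SYCP1 forms the transverse filaments that zip homologous axes together, and SYCE1 and SYCE2 belong to the central element of that structure. Dividing somatic cells use other cohesin subunits, and many germ cell genes are kept off outside the germline by methylation of CpG-rich promoters and by a Polycomb complex called PRC1.6. DAZL binds germ cell messenger RNAs and is needed for germ cells to enter meiosis.

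CHD4 averaged 28.4 FPKM with siCHD4 plus siDNMT1 and 68.2 FPKM with control siRNA plus siDNMT1. It averaged 54.9 FPKM with siCHD4 plus decitabine and 76.2 FPKM with control siRNA plus decitabine, a log2 change of -0.46 that did not pass the test (limma adjusted p = 0.0752). It averaged 31.3 FPKM with siCHD4 alone and 62.8 FPKM with control siRNA alone. DNMT1 averaged 12.1 FPKM with siCHD4 plus siDNMT1, 12.3 FPKM with control siRNA plus siDNMT1 and 44.7 FPKM with control siRNA alone. Of 12 colon epithelial markers, 7 were at or above 1 FPKM in every library, and CDX1 and MUC2 were below 1 FPKM in all. The 12 markers summed to between 1063 and 2463 FPKM, germ cell markers, DAZL among them, to between 1.01 and 13.7 FPKM, fibroblast markers to between 0.121 and 15.0 FPKM, blood markers to between 0.660 and 5.63 FPKM, and endothelial markers to at most 0.529 FPKM. Replicate 0 of control siRNA plus decitabine stood apart by depth: judged from the smallest step between low values, 1 fragment was worth 4.13 times as much FPKM there as in replicate 0 of control siRNA alone, against 0.601 to 1.12 times in the others. For the 4 tested genes, called changes that use it and siCHD4 changes within decitabine are given with and without it.

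Of the 10 genes, 4 passed the filter of at least 1 FPKM in at least 3 libraries and were tested among 12809 genes: SYCP3, STAG3, DAZL and SYCE2. SYCP3, STAG3 and DAZL were at or above 1 FPKM in 12, 13 and 6 libraries, nearly all of them with siDNMT1 or decitabine, so they passed through the groups where they were high. SYCE2 was above 1 FPKM in all 18 libraries. The other 6 genes stayed below 1 FPKM in every library. In 4 of the 10 genes (SYCP3, STAG3, DAZL and HORMAD1) all 12 libraries with siDNMT1 or decitabine lay above all 6 without, and the same held for 2.66% of the 19824 genes with any value above 0. In bulk RNA, a gain of expressing cells and more RNA per cell cannot be told apart.

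The promoter windows of the 4 tested genes are shown because the backgrounds act on DNA methylation, which in mammals falls mainly on CpG. Each window runs from 250 bases before to 50 bases after a transcription start listed by RefSeq (GRCh38.p14) and was placed on GRCh37 by an exact match of all 300 bases. Sequences read 5′ to 3′ on the gene's strand, with capitals marking each CpG. SYCP3 lies on the minus strand, window chr12:102133191-102133490. STAG3 lies on the plus strand, and its second listed start is shown, chr7:99775291-99775590. DAZL lies on the minus strand, chr3:16646881-16647180, and so does SYCE2, chr19:13030058-13030357.
SYCP3: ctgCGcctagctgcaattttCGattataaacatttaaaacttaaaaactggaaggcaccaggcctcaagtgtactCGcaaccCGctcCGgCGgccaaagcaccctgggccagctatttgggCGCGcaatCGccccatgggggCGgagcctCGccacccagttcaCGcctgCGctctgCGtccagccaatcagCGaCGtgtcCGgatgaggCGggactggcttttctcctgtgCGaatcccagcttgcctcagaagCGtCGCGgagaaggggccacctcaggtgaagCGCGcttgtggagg
STAG3: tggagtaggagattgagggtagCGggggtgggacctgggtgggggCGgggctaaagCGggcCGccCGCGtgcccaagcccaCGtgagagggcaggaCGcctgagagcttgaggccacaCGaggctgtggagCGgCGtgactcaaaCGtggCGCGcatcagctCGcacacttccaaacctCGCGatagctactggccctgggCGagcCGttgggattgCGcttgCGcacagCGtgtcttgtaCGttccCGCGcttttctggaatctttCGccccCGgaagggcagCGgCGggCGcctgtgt
DAZL: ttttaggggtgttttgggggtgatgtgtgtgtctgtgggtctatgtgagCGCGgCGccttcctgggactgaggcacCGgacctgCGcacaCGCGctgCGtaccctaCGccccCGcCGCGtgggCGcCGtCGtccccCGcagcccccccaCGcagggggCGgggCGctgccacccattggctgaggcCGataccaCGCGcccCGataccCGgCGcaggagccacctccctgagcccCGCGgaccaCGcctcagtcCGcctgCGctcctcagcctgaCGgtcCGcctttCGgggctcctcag
SYCE2: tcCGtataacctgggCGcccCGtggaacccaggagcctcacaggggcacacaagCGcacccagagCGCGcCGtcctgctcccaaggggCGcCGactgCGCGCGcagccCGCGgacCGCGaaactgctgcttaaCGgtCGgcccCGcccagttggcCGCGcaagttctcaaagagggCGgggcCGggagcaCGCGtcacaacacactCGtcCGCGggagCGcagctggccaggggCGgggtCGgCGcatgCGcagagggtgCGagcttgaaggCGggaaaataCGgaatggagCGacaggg
The SYCP3 window held 24 CpG, that of STAG3 30, that of DAZL 33 and that of SYCE2 37, against a median of 14 over all 35116 windows. Windows were found for 9 of the 10 genes, 12 windows in all. The E-box CACGTG was found, both strands searched, in windows of 3 of these genes, which is 4 of the 12 windows, and in 7.26% of all windows. The E2F core GCGGGAA was found, both strands searched, in windows of 7 of the 9 genes, which is 8 of the 12 windows, and in 6.55% of all windows. The window of STAG3 above held both motifs, that of SYCE2 held the E2F core, and those shown of SYCP3 and DAZL held neither. DAZL has a further window that is not shown, chr3:16646248-16646547, with 29 CpG, and it held the E-box. STAG3 also has a further window, chr7:99775097-99775396, with 20 CpG and no E2F core. It overlaps the STAG3 window shown, and the E-box in both is the same site.

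STAG3, the meiotic member of the STAG cohesin subunits, lies on chromosome 7 at 99775186 to 99812010 (GRCh37, plus strand). It was highest when siCHD4 was combined with siDNMT1. With siDNMT1 its values were 4.87, 5.30 and 5.97 FPKM with siCHD4 and 3.40, 2.77 and 3.05 FPKM with control siRNA. With decitabine its values were 2.50, 2.36 and 2.34 FPKM with siCHD4 and 3.89, 2.30 and 2.28 FPKM with control siRNA. Without either background its values were 1.09, 0.579 and 0.714 FPKM with siCHD4 alone, and 0.486, 0.318 and 0.808 FPKM with control siRNA alone. The 3 libraries with both siRNAs lay above all 3 of siCHD4 plus decitabine, as held for 24.0% of the tested genes. They also lay above all 3 of control siRNA plus siDNMT1, as held for 33.7%. The 2 decitabine groups overlapped, as did siCHD4 alone and control siRNA alone.

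Within the siDNMT1 background STAG3 averaged 5.38 ± 0.556 FPKM with siCHD4 and 3.07 ± 0.311 FPKM with control siRNA (SD, n = 3 each). The log2 change on the log2(FPKM + 1) scale was 0.65, with a 95% interval of 0.31 to 0.98 (limma adjusted p = 0.00358). It kept this call with each of the 18 libraries left out in turn. Within the decitabine background STAG3 averaged 2.40 ± 0.0834 FPKM with siCHD4 and 2.82 ± 0.926 FPKM with control siRNA. The log2 change there was -0.14, with an interval of -0.48 to 0.19 (limma adjusted p = 0.627), and it was 0.048 without the shallow replicate 0 of control siRNA plus decitabine. With siCHD4 alone it was 0.22, with an interval of -0.11 to 0.56 (limma adjusted p = 0.34). Against control siRNA alone, STAG3 rose by 2.06 on the log2 scale with siCHD4 plus siDNMT1 (limma adjusted p = 5.46e-08), by 1.42 with control siRNA plus siDNMT1 (limma adjusted p = 1.63e-05) and by 1.16 with siCHD4 plus decitabine (limma adjusted p = 5.85e-05). It rose by 1.30 with control siRNA plus decitabine against control siRNA alone (limma adjusted p = 4.20e-05), and by 1.11 without the shallow library.

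The siCHD4 effect on STAG3 with siDNMT1 exceeded the one with decitabine by 0.79 on the log2 scale, with an interval of 0.31 to 1.26 (limma adjusted p = 0.0425). Across all 12809 genes this difference was called in either direction for 8.40%. The call was lost with a pseudocount of 0.1 (0.97, limma adjusted p = 0.118), with no filter (limma adjusted p = 0.0533) and on leaving out any of 11 of the 18 libraries. Without replicate 0 of control siRNA plus decitabine the difference was 0.60 (limma adjusted p = 0.0648). The other 10 were all libraries of control siRNA plus siDNMT1, of siCHD4 plus siDNMT1 and of siCHD4 plus decitabine, and replicate 0 of control siRNA alone, with differences of 0.72 to 0.85 and limma adjusted p from 0.056 to 0.113. The difference between the siCHD4 effects with siDNMT1 and alone was 0.42, with an interval of -0.05 to 0.90 (limma adjusted p = 0.316), so a larger effect than alone was not shown.

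**Figure D1:**
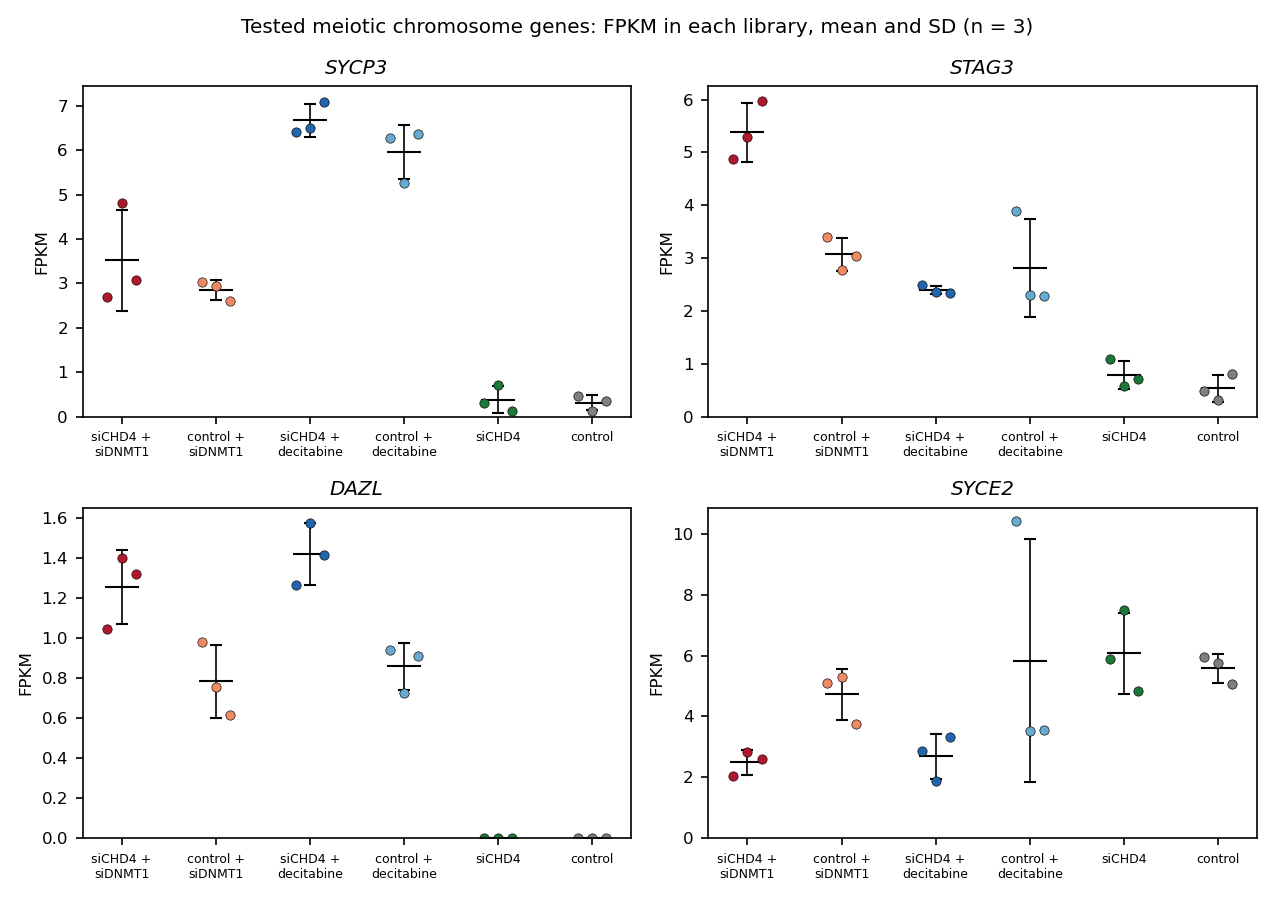
FPKM (vertical axes) of SYCP3, STAG3, DAZL and SYCE2 in each of 18 libraries, by group, with points for libraries, long bars for the mean and short bars for the SD (n = 3). SYCP3, STAG3 and DAZL are higher in all 12 libraries with siDNMT1 or decitabine than in all 6 without, STAG3 is highest with siCHD4 plus siDNMT1, and SYCE2 is lowest in the 2 groups that combine siCHD4 with siDNMT1 or decitabine.

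STAG3 shares its surroundings and sequence with other genes, which bears on its values because the sources used here do not say whether strand was used in counting. GPC2, a cell surface proteoglycan gene, starts 182 bases away on the other strand, and GATS, listed as CASTOR3P in the annotation, overlaps STAG3 on the other strand over 13735 bases. GPC2 was called higher with siCHD4 plus siDNMT1 against control siRNA plus siDNMT1 (log2 change 0.61, limma adjusted p = 0.0225), and GATS likewise (0.32, limma adjusted p = 0.0378). STAG3L2, a partial copy of STAG3 that could share reads with it, averaged 12.7 ± 0.141 FPKM with siCHD4 plus siDNMT1 and 7.31 ± 0.717 FPKM with control siRNA plus siDNMT1 (0.73, limma adjusted p = 0.000208). The part of these neighbours and copies in the STAG3 values was not tested.

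REC8, the meiotic kleisin that closes the cohesin ring (chromosome 14, 24641062 to 24649463, plus strand), was low in every library. In siDNMT1 cells its level was 0.635, 0.851 and 0.622 FPKM with siCHD4 and 0.305, 0.224 and 0.359 FPKM with control siRNA. In decitabine cells its level was 0.710, 0.502 and 0.421 FPKM with siCHD4 and 0.220, 0.539 and 0.426 FPKM with control siRNA. In cells without a background its level was 0.205, 0.251 and 0.326 FPKM with siCHD4 alone, and 0.427, 0.343 and 0.479 FPKM with control siRNA alone. The siDNMT1 groups did not overlap, with siCHD4 higher, as held for 30.6% of 19824 genes. The groups without a background did not overlap either, with siCHD4 lower, as held for 11.2%. Without the filter, the change within siDNMT1 was 0.39 (limma adjusted p = 0.00305, with 23.4% of 19824 genes called higher), and it was 0.10 after quantile normalization (limma adjusted p = 0.456). The change with siCHD4 alone was -0.17, with an interval of -0.36 to 0.02 (limma adjusted p = 0.269). The difference between these effects was 0.56, with an interval of 0.29 to 0.83 (limma adjusted p = 0.0161 without the filter, a difference called in 5.51% of 19824 genes), and it missed the threshold after quantile normalization (0.44, limma adjusted p = 0.0700). REC8 overlaps IPO4 on the other strand by 39 bases.

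SMC1B, the meiotic SMC1 subunit (chromosome 22, 45739944 to 45809500, minus strand), was read at 0.171, 0.159 and 0.200 FPKM with siCHD4 plus siDNMT1. It was read at 0.102, 0.224 and 0.108 FPKM with control siRNA plus siDNMT1. The 2 groups overlapped. It lay between 0.0806 and 0.134 FPKM with siCHD4 plus decitabine, and at 0, 0 and 0.0710 FPKM with control siRNA plus decitabine. It lay between 0.0716 and 0.136 FPKM with siCHD4 alone, and between 0.0266 and 0.0285 FPKM with control siRNA alone. Judged from the worth of 1 fragment, these values imply 22 fragments in all with siCHD4 plus siDNMT1, 16 with control siRNA plus siDNMT1, 19 with siCHD4 plus decitabine, 3 with control siRNA plus decitabine, 15 with siCHD4 alone and 3 with control siRNA alone. These totals are not scaled by depth. Against replicate 0 of control siRNA alone, 1 fragment was worth 0.605, 0.601 and 0.714 times as much FPKM with siCHD4 plus decitabine. With control siRNA plus decitabine it was worth 4.13, 1.12 and 0.886 times, and with siCHD4 alone 0.639, 0.671 and 1.02 times. Deeper libraries give more fragments at the same FPKM. In both the decitabine groups and the groups without a background all 3 siCHD4 libraries lay above all 3 controls, as held for 14.2% and 13.8% of 19824 genes, but neither change passed without the filter (0.12, limma adjusted p = 0.133, and 0.09, limma adjusted p = 0.158). With control siRNA plus siDNMT1 against control siRNA alone SMC1B was called higher without the filter (0.15, limma adjusted p = 0.0293, with 4.98% of 19824 genes called higher), but not after quantile normalization (0.09, limma adjusted p = 0.251). That call was also lost on leaving out any library of control siRNA alone or replicate 1 of control siRNA plus siDNMT1 (0.10 to 0.15, limma adjusted p from 0.0784 to 0.118).

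The mitotic counterparts stood far above these genes on the same length-scaled measure, as the plot of cohesin subunits shows. Of 13 genes of mitotic cohesin and its regulators, all tested, 0 were called higher and 2 lower with siCHD4 plus siDNMT1 against control siRNA plus siDNMT1, while 24.8% of all genes tested were called higher and 24.6% lower. Without replicate 0 of control siRNA plus decitabine, which is in neither group, 4 were called lower, while calls over all genes in either direction rose from 6323 to 7143. The 2 were CDCA5, which encodes sororin (log2 change -0.50, limma adjusted p = 0.00024), and ESCO2, a cohesin acetyltransferase (-0.87, limma adjusted p = 0.000296). None of the core subunits shown in the plot passed: SMC1A had a log2 change of -0.03 (limma adjusted p = 0.8), STAG1 of -0.28 (limma adjusted p = 0.175), STAG2 of 0.30 (limma adjusted p = 0.324) and RAD21 of 0.26 (limma adjusted p = 0.206). The median of the list was -0.03 and that of all genes tested -0.01.

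**Figure D2:**
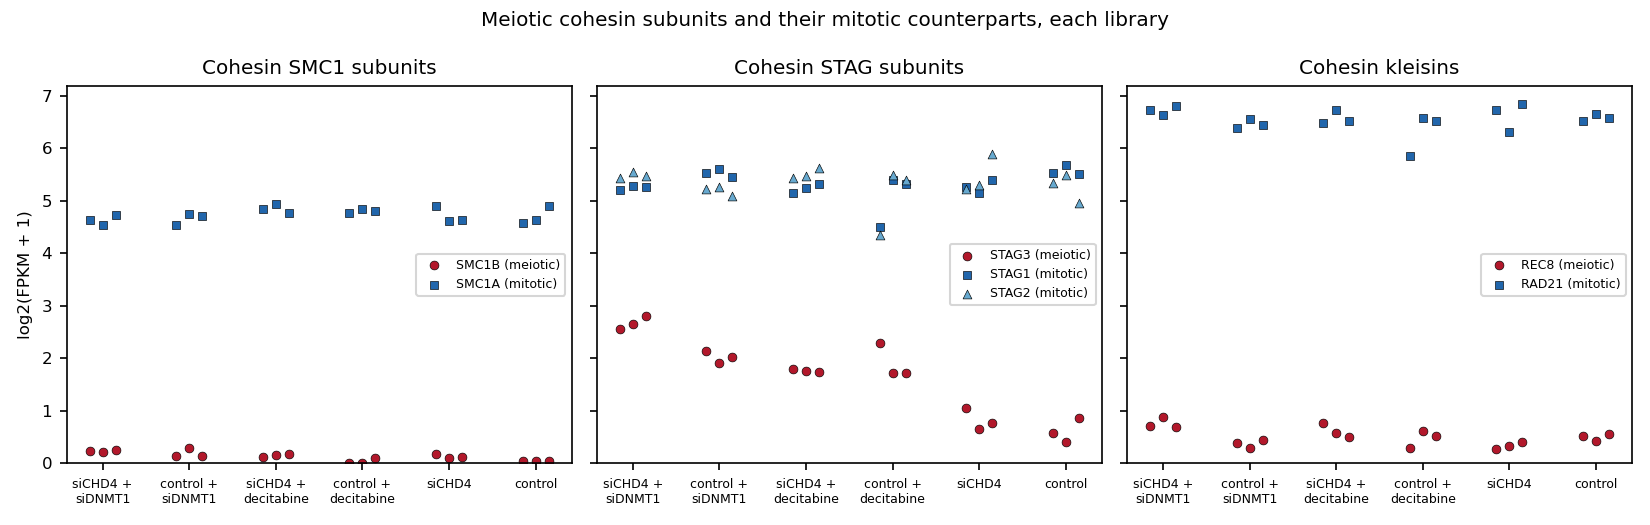
log2(FPKM + 1) (vertical axis) of the meiotic cohesin subunits SMC1B, STAG3 and REC8 (red circles) and of their mitotic counterparts SMC1A, STAG1, STAG2 and RAD21 (blue) in each of 18 libraries, by group. In every library each meiotic subunit lies below its mitotic counterparts, and STAG3 comes nearest to them with siCHD4 plus siDNMT1.

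SYCP3, a core protein of the chromosome axis, lies on chromosome 12 at 102122426 to 102133250 (minus strand). It was highest with decitabine and did not pass the test for siCHD4 in any background. In siDNMT1 cells its level was 2.68, 4.81 and 3.07 FPKM with siCHD4 and 3.02, 2.95 and 2.60 FPKM with control siRNA. In decitabine cells its level was 6.41, 6.50 and 7.09 FPKM with siCHD4 and 6.28, 5.26 and 6.35 FPKM with control siRNA. In cells without a background its level was 0.305, 0.719 and 0.121 FPKM with siCHD4 alone, and 0.477, 0.127 and 0.357 FPKM with control siRNA alone. All 3 libraries of siCHD4 plus decitabine lay above all 3 of siCHD4 plus siDNMT1, as held for 28.3% of the tested genes. All 3 of control siRNA plus decitabine lay above all 3 of control siRNA plus siDNMT1, as held for 15.5%. These 2 backgrounds also differ in schedule.

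SYCP3 averaged 2.86 ± 0.223 FPKM with control siRNA plus siDNMT1 and 0.320 ± 0.177 FPKM with control siRNA alone, a log2 change of 1.55 (limma adjusted p = 1.48e-05). It averaged 5.96 ± 0.611 FPKM with control siRNA plus decitabine, a log2 change of 2.40 against control siRNA alone (limma adjusted p = 1.48e-07), and of 2.37 without the shallow library. Against the same libraries it rose by 1.76 with siCHD4 plus siDNMT1 (limma adjusted p = 7.20e-07) and by 2.55 with siCHD4 plus decitabine (limma adjusted p = 3.26e-08). The changes with siCHD4 were 0.20 with siDNMT1 (interval -0.16 to 0.57, limma adjusted p = 0.343), 0.14 with decitabine (-0.22 to 0.51, limma adjusted p = 0.658, and 0.18 without the shallow library) and 0.05 alone (-0.31 to 0.42, limma adjusted p = 0.866). The first and the last of these reversed after quantile normalization, to -0.053 and -0.11. SYCP3 lies wholly inside CHPT1, a phospholipid synthesis gene on the other strand, over 10825 bases. CHPT1 fell with control siRNA plus siDNMT1 (-0.49, limma adjusted p = 0.0139) and with control siRNA plus decitabine (-0.55, limma adjusted p = 0.00548) against control siRNA alone. The part of CHPT1 in the SYCP3 values was not tested.

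SYCP2, the axis partner of SYCP3 (chromosome 20, 58438619 to 58508710, minus strand), was read at 0.206, 0.204 and 0.289 FPKM with siCHD4 plus siDNMT1, and at 0.234, 0.172 and 0.103 FPKM with control siRNA plus siDNMT1. In the decitabine groups it stood at 0.210, 0.0859 and 0.176 FPKM with siCHD4 and at 0, 0.0229 and 0.127 FPKM with control siRNA. Without a background it stood at 0.0523, 0.0686 and 0.0624 FPKM with siCHD4 alone, and at 0.0409, 0.0876 and 0.102 FPKM with control siRNA alone. In each background the siCHD4 and control siRNA libraries overlapped. The values imply 38 fragments with siCHD4 plus siDNMT1, 25 with control siRNA plus siDNMT1, 36 with siCHD4 plus decitabine, 8 with control siRNA plus decitabine, 12 with siCHD4 alone and 11 with control siRNA alone. These totals are not scaled by depth, which was greater with siCHD4 plus decitabine than with control siRNA plus decitabine. SYCP2L, its paralog, passed the filter and averaged 1.17 ± 0.107 FPKM with siCHD4 plus siDNMT1 and 0.516 ± 0.0765 FPKM with control siRNA plus siDNMT1 (log2 change 0.52, limma adjusted p = 0.00144). After quantile normalization SYCP2L was not called higher in this comparison.

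HORMAD1, an axis protein that takes part in recombination and its checkpoint (chromosome 1, 150670536 to 150693371, minus strand), was listed at 0 in all 6 libraries of siCHD4 alone and control siRNA alone. A value of 0 allows up to 3 fragments, which is 0.124 to 0.197 FPKM in the libraries of siCHD4 alone and 0.193 to 0.207 FPKM in those of control siRNA alone. Its values with siCHD4 plus siDNMT1 were 0.533, 0.515 and 0.269 FPKM, from an implied 9, 8 and 5 fragments. Those with control siRNA plus siDNMT1 were 0.555, 0.136 and 0.391 FPKM, from an implied 9, 2 and 6 fragments. With decitabine its values were 0.156, 0.271 and 0.139 FPKM with siCHD4 (4, 7 and 3 fragments) and 0.533, 0.0724 and 0.115 FPKM with control siRNA (2, 1 and 2 fragments). The high value of the last group is that of the shallow library. Several libraries with a background lay under the limit that a 0 allows in the others, so not all of these readings can be told from 0. HORMAD1 and DAZL were listed at 0 in all 6 libraries without a background and above 0 in all 12 with one, a pattern that 78 genes had, 0.393% of the 19824.

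Of the central region, SYCP1, the transverse filament protein (chromosome 1, 115397484 to 115537991, plus strand), was listed at 0 in 17 libraries. The exception was replicate 2 of siCHD4 plus siDNMT1, with 0.0273 FPKM, taken as 1 fragment because it is the gene's only reading above 0. SYCE1 (chromosome 10, 135367405 to 135383339, minus strand) was read at 0.180, 0.293 and 0.0769 FPKM with siCHD4 plus siDNMT1, and at 0.0935, 0 and 0.198 FPKM with control siRNA plus siDNMT1. In decitabine cells its level was 0.355, 0.0588 and 0.0703 FPKM with siCHD4 and 0.404, 0.110 and 0.0870 FPKM with control siRNA. In cells without a background its level was 0, 0.0658 and 0 FPKM with siCHD4 alone, and 0, 0.210 and 0.190 FPKM with control siRNA alone. All 3 pairs of groups overlapped. SYCE1 overlaps CYP2E1 on the other strand. The partner genes SYCE3 and HORMAD2 were at 0 in every library of control siRNA, in any background, and of siCHD4 alone.

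**Figure D3:**
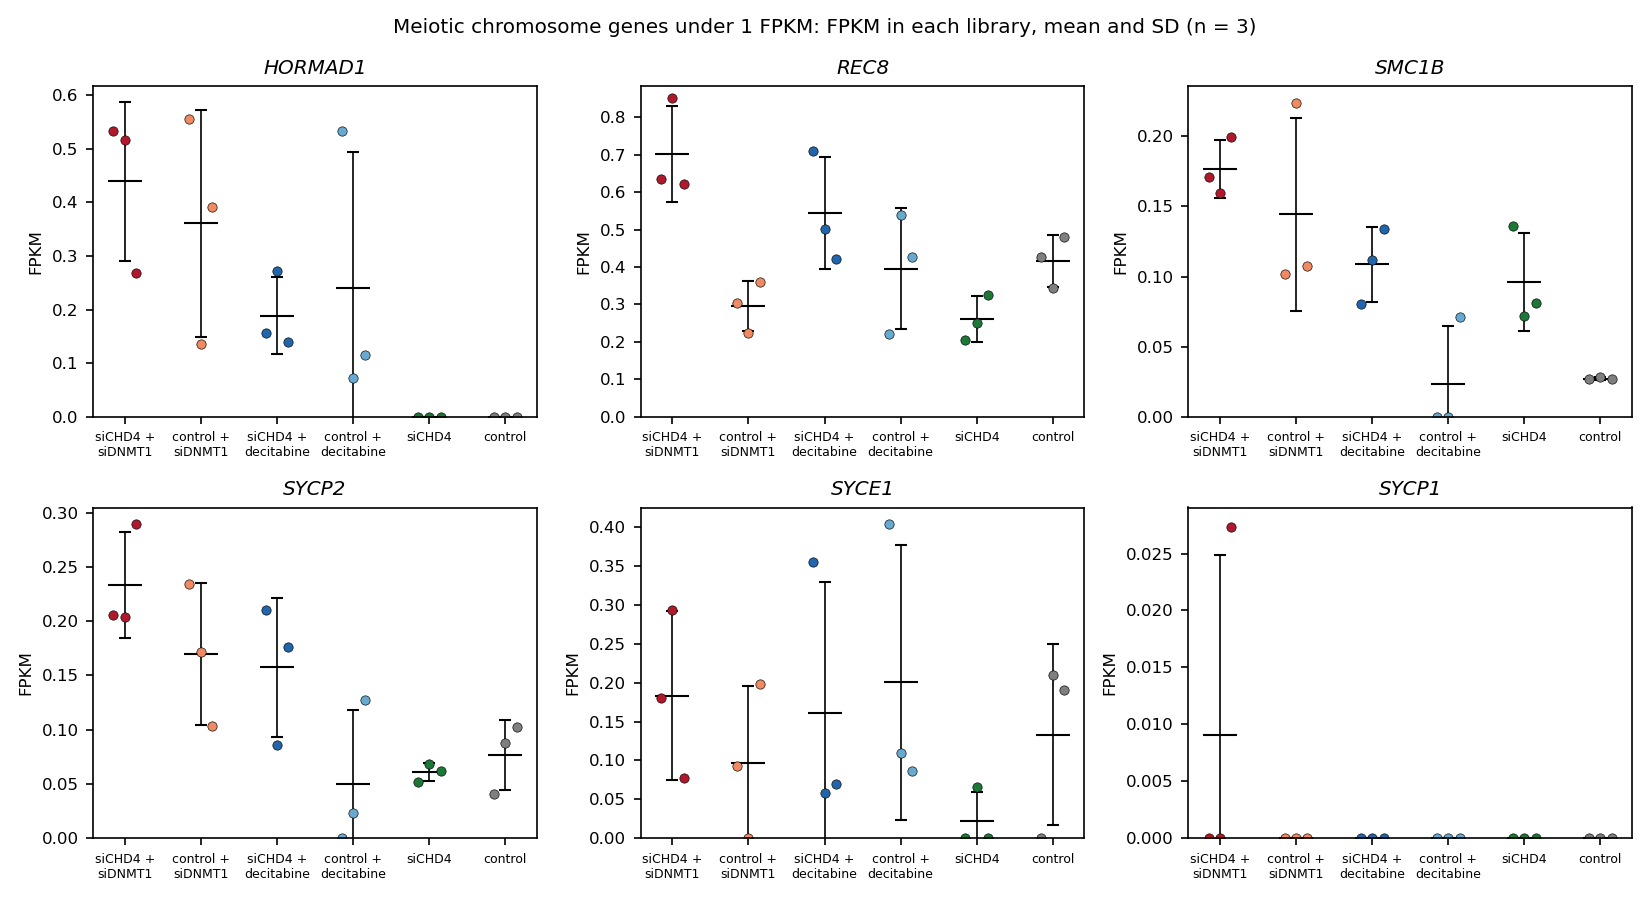
FPKM (vertical axes, each to its own scale) of the 6 genes below 1 FPKM in each of 18 libraries, by group, with points for libraries, long bars for the mean and short bars for the SD (n = 3), cut at 0 where the SD reaches below it. HORMAD1 is at 0 in the 6 libraries without a background, REC8 is higher in all 3 libraries of siCHD4 plus siDNMT1 than in those of control siRNA plus siDNMT1, and SYCP1 is above 0 in 1 library.

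SYCE2, a central element protein (chromosome 19, 13009600 to 13030107, minus strand), was read at several FPKM in control siRNA cells and was called lower with siCHD4 plus siDNMT1. In the siDNMT1 groups it stood at 2.05, 2.82 and 2.60 FPKM with siCHD4 and at 5.11, 5.31 and 3.76 FPKM with control siRNA. In the decitabine groups it stood at 2.88, 1.88 and 3.31 FPKM with siCHD4 and at 10.4, 3.51 and 3.57 FPKM with control siRNA. Without a background it stood at 5.90, 7.49 and 4.85 FPKM with siCHD4 alone, and at 5.96, 5.74 and 5.05 FPKM with control siRNA alone. In both combinations all 3 siCHD4 libraries lay below all 3 controls, as held for 36.4% of tested genes with siDNMT1 and 13.2% with decitabine. The reading of 10.4 FPKM came from the shallow library.

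SYCE2 averaged 2.49 ± 0.399 FPKM with siCHD4 plus siDNMT1 and 4.73 ± 0.847 FPKM with control siRNA plus siDNMT1, a log2 change of -0.71, with an interval of -1.31 to -0.11 (limma adjusted p = 0.0463). That call missed the threshold with no filter (limma adjusted p = 0.0688), after median ratio rescaling (-0.68, limma adjusted p = 0.0527) and on leaving out any of 11 of the 18 libraries (-0.78 to -0.62, limma adjusted p from 0.0507 to 0.14). These were all of siCHD4 plus siDNMT1 and of control siRNA alone, replicates 0 and 1 of control siRNA plus siDNMT1, replicates 0 and 2 of siCHD4 plus decitabine and replicate 0 of siCHD4 alone. Without replicate 0 of control siRNA plus decitabine, which is in neither group, the limma adjusted p for the same change was 0.00238. Against control siRNA alone, SYCE2 fell by 0.92 with siCHD4 plus siDNMT1 (limma adjusted p = 0.0106), a call that held with each library left out. It fell by 0.85 with siCHD4 plus decitabine against control siRNA alone (limma adjusted p = 0.0275), a call lost without replicate 0 or 1 of control siRNA alone or of siCHD4 plus decitabine (-0.90 to -0.68, limma adjusted p from 0.0556 to 0.122). Within decitabine the change with siCHD4 was -0.76 (limma adjusted p = 0.147), and it was -0.32 without the shallow library (limma adjusted p = 0.391). For control siRNA plus decitabine against control siRNA alone the change was -0.09, and -0.53 without the shallow library (limma adjusted p = 0.0640). SYCE2 overlaps GCDH, a mitochondrial dehydrogenase gene on the other strand, over 15422 bases. GCDH fell with siCHD4 plus siDNMT1 against control siRNA alone (-0.41, limma adjusted p = 0.00597), and its part in the SYCE2 values was not tested.

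DAZL (chromosome 3, 16628299 to 16711813, minus strand) was listed at 0 in all 6 libraries of siCHD4 alone and control siRNA alone. A 0 allows 3 fragments, which for DAZL is 0.436 to 0.694 FPKM in the libraries of siCHD4 alone and 0.680 to 0.729 FPKM in those of control siRNA alone. These limits are uncertain, because 1 fragment was set by the smallest depth-scaled DAZL reading. On that unit only 3 of the 12 readings above 0 came out near whole numbers. In siDNMT1 cells its level was 1.04, 1.40 and 1.32 FPKM with siCHD4 and 0.978, 0.757 and 0.613 FPKM with control siRNA. In decitabine cells its level was 1.26, 1.57 and 1.42 FPKM with siCHD4 and 0.939, 0.724 and 0.910 FPKM with control siRNA. The lowest control reading of each background, 0.613 FPKM with control siRNA plus siDNMT1 and 0.724 FPKM with control siRNA plus decitabine, lay under the highest of these limits. The 0.939 FPKM of the shallow library is the reading that was taken as 1 fragment. In both backgrounds all 3 siCHD4 libraries lay above all 3 controls, as held for 33.7% of tested genes with siDNMT1 and 13.8% with decitabine. DAZL was called higher than in control siRNA alone in all 4 groups with a background, with limma adjusted p of 1.61e-07 for siCHD4 plus siDNMT1, 1.69e-07 for siCHD4 plus decitabine, 3.36e-05 for control siRNA plus siDNMT1 and 1.81e-05 for control siRNA plus decitabine (8.49e-05 without the shallow library).

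Within siDNMT1 DAZL averaged 1.25 ± 0.187 FPKM with siCHD4 and 0.782 ± 0.184 FPKM with control siRNA. The log2 change was 0.34, with an interval of 0.13 to 0.55 (limma adjusted p = 0.0105), but -0.035 after quantile normalization (limma adjusted p = 0.815). It missed the threshold without replicate 2 of control siRNA plus siDNMT1 (0.27, limma adjusted p = 0.0544) and without replicate 1 of siCHD4 plus siDNMT1 (0.29, limma adjusted p = 0.0507). Within decitabine it averaged 1.42 ± 0.155 FPKM with siCHD4 and 0.858 ± 0.117 FPKM with control siRNA, a change of 0.38 (limma adjusted p = 0.0401), and of 0.41 without the shallow library (limma adjusted p = 0.0396). That call was lost with the replicate block (limma adjusted p = 0.0711), a pseudocount of 0.1 (0.67, limma adjusted p = 0.150), quantile normalization (0.25, limma adjusted p = 0.213) and a fit on the compared groups (limma adjusted p = 0.181). It was also lost on leaving out any of 12 libraries (0.33 to 0.43, limma adjusted p from 0.051 to 0.182). These were all of siCHD4 plus siDNMT1, siCHD4 plus decitabine and control siRNA alone, replicates 1 and 2 of control siRNA plus decitabine and replicate 1 of control siRNA plus siDNMT1. The siCHD4 effects on DAZL with siDNMT1 and with decitabine differed by -0.04, with an interval of -0.34 to 0.26, and by -0.071 without the shallow library.

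**Figure D4:**
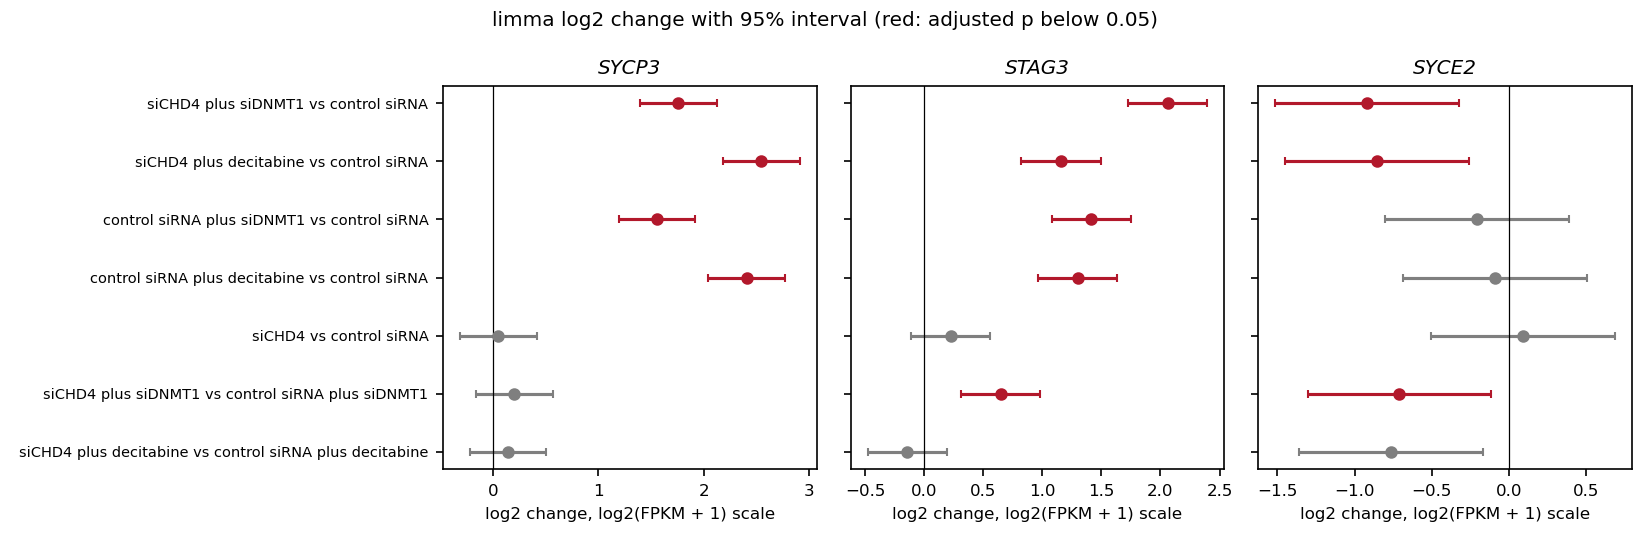
limma log2 change on the log2(FPKM + 1) scale (horizontal axes) of SYCP3, STAG3 and SYCE2 in 7 comparisons, with 95% intervals, in red where the adjusted p is below 0.05. SYCP3 and STAG3 are higher in all 4 comparisons with control siRNA alone that include siDNMT1 or decitabine, and among the siCHD4 comparisons within a background STAG3 is called higher and SYCE2 lower with siDNMT1 and neither is called with decitabine.

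The counts of called members stand here beside the share of all 12809 tested genes called in the same comparison. With siCHD4 plus siDNMT1 against control siRNA plus siDNMT1, 2 of the 4 tested genes rose (STAG3, and DAZL, whose change was -0.035 after quantile normalization) and SYCE2 fell, while 24.8% of all genes were called higher and 24.6% lower. With siCHD4 plus siDNMT1 against control siRNA alone, SYCP3, STAG3 and DAZL rose and SYCE2 fell, while 29.3% of all genes were called higher and 29.8% lower. With siCHD4 plus decitabine against control siRNA alone the same 4 calls were made, while 18.0% were called higher and 16.9% lower. With control siRNA plus siDNMT1 against control siRNA alone 3 rose, while 6.94% of all genes were called higher. With control siRNA plus decitabine against control siRNA alone the same 3 rose, while 9.60% of all genes were called higher. These 2 comparisons share their control libraries. SYCP3, STAG3 and DAZL passed the filter through groups with siDNMT1 or decitabine. Their rises against control siRNA alone were thus partly set by the filter, and these counts are not evenly matched to the shares. Without the filter, 4 of the 10 genes were called higher with control siRNA plus siDNMT1, beside 4.98% of 19824 genes. With control siRNA plus decitabine 3 of the 10 were called higher without the filter. The share of all genes without the filter is not given for that comparison, so this count has nothing to stand beside.

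With siCHD4 plus decitabine against control siRNA plus decitabine DAZL alone was called, while 3.26% of all genes were called higher. With siCHD4 alone 0 of the 4 tested genes were called by limma and 0 had an unadjusted p below 0.05, while 19.3% of all genes were called in either direction. For the difference between the siCHD4 effects with siDNMT1 and alone, 0 of the 4 were called by limma, while 4.12% of all genes were called. For the difference between the effects with decitabine and alone, 0 were called by limma, while 1.16% of all genes were called. An unadjusted p below 0.05 was found for 1 of the 4 in the first difference and 2 in the second. The shares count genes by adjusted p, so these counts by unadjusted p cannot be set against them. Without the filter, 7 of the 10 genes were called higher and SYCE2 lower with siCHD4 plus siDNMT1 against control siRNA alone, while 28.6% of 19824 genes were called higher and 18.8% lower. The added calls were HORMAD1 (limma adjusted p = 0.00364), SYCP2 (0.20, limma adjusted p = 0.00706), SMC1B (0.20, limma adjusted p = 0.00101) and REC8 (0.26, limma adjusted p = 0.0235), of which the last 3 turned to -0.078, -0.028 and -0.21 after quantile normalization. The REC8 call was lost without replicate 1 of control siRNA alone (0.23, limma adjusted p = 0.0866) and without replicate 1 of siCHD4 plus siDNMT1 (0.20, limma adjusted p = 0.0991).

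Other genes of meiosis and the germline gave a wider view of the siDNMT1 background. Many of them passed the filter only through the groups where they were high, so each list is given first without it. With siCHD4 plus siDNMT1 against control siRNA plus siDNMT1, 23.4% of 19824 genes were then called higher and 15.4% lower, with a median change of 0.04. Of 14 further genes of the axis, the synaptonemal complex and telomere attachment, 13 were above 0 in at least 1 library, 5 of them were called higher and 1 lower, and their median was 0.04. Of the 4 that passed the filter 2 rose and 1 fell, beside 24.8% and 24.6% of all genes tested. After quantile normalization 0 were called higher and 1 lower, while 2905 of the 12809 genes tested were called higher and 3426 lower. The 3 called without that normalization were SYCP2L, FKBP6 (0.58, limma adjusted p = 0.00135) and the axis-remodelling ATPase TRIP13, which also acts in mitosis (-0.73, limma adjusted p = 0.000247). Of 20 recombination genes in the table, 9 were called higher and 3 lower without the filter, with a median of 0.03. Of the 11 that passed the filter 3 rose and 4 fell, beside 24.8% and 24.6% of all genes tested. After quantile normalization 1 was called higher and 6 lower, beside the same 2905 and 3426 of all 12809 genes tested. TEX11, a crossover protein, averaged 2.50 ± 0.789 FPKM with siCHD4 plus siDNMT1 and 0.244 ± 0.0258 FPKM with control siRNA plus siDNMT1 (1.47, limma adjusted p = 3.39e-06). MEIOB, which binds single-stranded DNA in recombination, averaged 1.01 ± 0.107 FPKM with siCHD4 plus siDNMT1 and 2.33 ± 0.323 FPKM with control siRNA plus siDNMT1 (-0.72, limma adjusted p = 0.000668). MND1, a cofactor of strand exchange, fell as well (-0.86, limma adjusted p = 3.65e-05), and MSH4, another crossover protein, rose (0.63, limma adjusted p = 0.00101).

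Of 15 genes of germ cell identity and meiotic entry, 14 were above 0 in at least 1 library, and with siCHD4 plus siDNMT1 against control siRNA plus siDNMT1 7 of them were called higher and 0 lower without the filter, with a median of 0.33, beside 23.4% of all 19824 genes called higher. Of the 7 that passed the filter 6 rose and 0 fell, beside 24.8% and 24.6% of all genes tested. After quantile normalization 5 were called higher and 0 lower, while 2905 of the 12809 genes tested were called higher and 3426 lower. SOHLH1, a germ cell transcription factor, averaged 25.6 ± 2.07 FPKM with siCHD4 plus siDNMT1 and 3.13 ± 0.597 FPKM with control siRNA plus siDNMT1 (2.70, limma adjusted p = 1.76e-06). It was listed at 0 in all 3 libraries of control siRNA alone. TEX101, a germ cell surface protein, rose by 2.29 (limma adjusted p = 1.98e-07), BRDT, the testis bromodomain protein, by 1.02 (limma adjusted p = 4.83e-06) and DDX4, a germ cell RNA helicase, by 0.70 (limma adjusted p = 0.000187). With siCHD4 plus decitabine against control siRNA plus decitabine 5 of the 14 were called higher without the filter. Of the 7 that passed it 4 rose, with or without the shallow library, beside 3.26% of all genes tested. With siCHD4 alone 2 of the 14 were called higher without the filter. Of the 7 that passed it 1 rose, beside 9.58% of all genes tested. Many listed genes passed through groups where they were high, so the counts among the 7 are not evenly matched to these shares.

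Of the 6 genes of PRC1.6, a repressor complex of germ cell genes, 0 rose and 5 fell with siCHD4 plus siDNMT1 against control siRNA plus siDNMT1, with a median of -0.28, but 2 were called lower after quantile normalization. Of all genes tested 24.8% rose and 24.6% fell. PCGF6 averaged 13.8 ± 0.798 FPKM with siCHD4 plus siDNMT1 and 22.5 ± 1.99 FPKM with control siRNA plus siDNMT1 (-0.66, limma adjusted p = 5.48e-05). L3MBTL2 fell by 0.59 (limma adjusted p = 0.00167), MAX by 0.28 (limma adjusted p = 0.0224) and TFDP1 by 0.28 (limma adjusted p = 0.0349). With siCHD4 alone 1 of the 6 fell, PCGF6 (-0.42, limma adjusted p = 0.00612), beside 9.71% of all genes tested. Without replicate 0 of control siRNA plus decitabine 2 of the 6 were called lower, while calls over all genes in either direction rose from 2471 to 3451. With siCHD4 plus decitabine against control siRNA plus decitabine 0 of the 6 were called by limma, beside 4.57% of all genes tested called in either direction. An unadjusted p below 0.05 was found for 3 of the 6, a count with no share of all genes beside it.

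Across the 18 libraries the members did not move as one. On log2(FPKM + 1), DAZL and SYCP3 had a Pearson r of 0.929, DAZL and STAG3 of 0.869, and STAG3 and SYCP3 of 0.750, while SYCE2 had -0.457 with SYCP3, -0.493 with STAG3 and -0.629 with DAZL. These describe 18 points that fall into 6 groups and share library depth. Of all other genes tested, those most like SYCP3 were PGF (0.970), CBS (0.959) and SLC2A3 (0.957). Those most like STAG3 were SUPT4H1 (0.979), ITGBL1 and RAB34 (both 0.973). Those most like DAZL were PNMA5 (0.979), PAGE2B (0.978) and SSX3 (0.975). Those most like SYCE2 were EPHX2 (0.939), POLR1D (0.938) and TARS2 (0.927).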

How the data were processed

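Total RNA of SW48 cells was sequenced, per the labels' protocols, from stranded libraries made after ribosomal RNA removal, with RNA extracted by Trizol or an RNeasy kit. The authors deposited 1 table of FPKM with a column for each library. The submitters' processing notes name TopHat2 2.0.9, Cuffdiff 2.1.1 and hg19. No source used here gives the annotation, the filters, the scaling or the use of strand. Of 23599 entries, 28 whose gene name had become a date were not used. Read counts were not used here. The worth of 1 fragment was read from the smallest steps between low values, and intervals or limits from it cover counting error only. For each member, the smallest depth-scaled reading above 0 was taken as 1 fragment.

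From these values log2(FPKM + 1) was computed, which understates the changes of low genes. The 12809 genes that reached 1 FPKM in 3 or more of 18 libraries were fitted with limma 3.58.1 in R 4.3.3, with 1 mean per group, 12 residual degrees of freedom and empirical Bayes with a trend. Each comparison was adjusted by the Benjamini-Hochberg method over its whole set of genes, and an adjusted p below 0.05 was called. All tests are two-sided. The fit was tested on simulated data. Values without the filter come from the same fit on all 19824 genes above 0 in at least 1 library. A fold change is not given against a group at 0.

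The titles give each library's group and number, and libraries with the same number (0, 1 or 2) were not treated as pairs. The genes named are the 10 members, the targeted genes, the 3 genes most correlated with each called member, up to 4 genes per list with the smallest p within siDNMT1, paralogs and overlapping genes. GPC2, which does not overlap, and STAG3L2 were added after their values were seen. The members and lists were chosen with earlier results of these data known. Positions are GRCh37, from GENCODE v44lift37. Alternatives were a pseudocount of 0.1, no filter, median ratio rescaling, quantile normalization, the replicate block, only the groups compared and each library left out. Added after seeing the data was the absence of a filter combined with each of the others, for low genes.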

Additional observations from a re-analysis of the deposited data

Results flagged for a closer look

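The siCHD4 effect on STAG3 differed between backgrounds by a test of the difference itself: it was 0.79 larger on the log2(FPKM + 1) scale with siDNMT1 than with decitabine (limma adjusted p = 0.0425). The call was lost with a pseudocount of 0.1 (limma adjusted p = 0.118), with no filter (limma adjusted p = 0.0533) and on leaving out any of 11 of the 18 libraries, among them the shallow replicate 0 of control siRNA plus decitabine (0.60, limma adjusted p = 0.0648). STAG3 was higher in all 3 libraries of siCHD4 plus siDNMT1 than in the 3 of control siRNA plus siDNMT1, as held for 33.7% of tested genes. The decitabine groups overlapped. The 2 backgrounds also differ in schedule. CHD4 averaged 28.4 FPKM with siCHD4 plus siDNMT1 and 68.2 FPKM with control siRNA plus siDNMT1, and it averaged 54.9 FPKM with siCHD4 plus decitabine and 76.2 FPKM with control siRNA plus decitabine. The part of schedule or CHD4 level in the difference was not tested.

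The siCHD4 effect on REC8 also differed, by 0.56 between siDNMT1 and no background (limma adjusted p = 0.0161 with no filter, a difference called in 5.51% of 19824 genes), but the call was lost after quantile normalization (0.44, limma adjusted p = 0.0700). REC8 was higher with siCHD4 in all 3 libraries with siDNMT1 and lower with siCHD4 in all 3 libraries without a background. It stayed below 1 FPKM in every library.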

How the results depend on the processing

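The table as deposited limits what can be said of the 6 genes below 1 FPKM, each read from few fragments. Over all genes, a fit on only the groups compared gave 514 calls for siCHD4 alone (2471 with all groups), 147 for siCHD4 plus decitabine against its control (586), 2774 for control siRNA plus siDNMT1 (1452) and 929 for control siRNA plus decitabine (2335), the last 2 against control siRNA alone. For the difference between the siCHD4 effects with siDNMT1 and alone, 528 calls became 317 with a pseudocount of 0.1 and 1093 with no filter. For decitabine and alone, 148 became 97 with the replicate block and 42 with only the groups compared. For siDNMT1 and decitabine, 1076 became 693 with a pseudocount of 0.1, 692 with the replicate block and 1906 with only the groups compared. The cause was not tested.

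Of the 4 tested genes, 1 was called for siCHD4 plus decitabine and 0 with a pseudocount of 0.1, quantile normalization, the replicate block or only the groups compared. For siCHD4 plus siDNMT1 against control siRNA alone, 4 of the 4 were called with the filter and 8 of the 10 without. Of all genes, 29.3% were called higher and 29.8% lower with the filter, and 28.6% and 18.8% without. For the difference between siDNMT1 and alone, 0 of the 4 were called with the filter, beside 4.12% of all genes. Without it 1 of the 10 was called, beside 5.51%. For the difference between siDNMT1 and decitabine, 1 became 0 with a pseudocount of 0.1 and with no filter. The replicate block changed no other call of a tested member. Residuals of libraries with the same number had r from -0.31 to 0.126, and those of other pairs from -0.211 to 0.239.

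Quantile normalization reversed 9 values. These were SYCE2 (-0.0054) and SYCP3 (-0.11) for siCHD4 alone, DAZL (-0.035) and SYCP3 (-0.053) within siDNMT1, and SYCE2 (-0.10) and SYCP3 (-0.12) for the difference between siDNMT1 and decitabine. With no filter they were SYCP2 (-0.078), SMC1B (-0.028) and REC8 (-0.21) for siCHD4 plus siDNMT1 against control siRNA alone. It also moved the higher share of calls to 56.6%, against 71.3%, for siCHD4 within decitabine, and to 56.7%, against 68.8%, for the difference between siDNMT1 and alone.

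With each of 18 libraries left out, calls over all genes ranged from 1488 to 3451 for siCHD4 alone, 294 to 1242 within decitabine, 884 to 2260 for control siRNA plus siDNMT1, 1316 to 3135 for control siRNA plus decitabine, and 224 to 2552, 71 to 307 and 214 to 2326 for the 3 differences in the order above. Called members ranged from 1 to 3 within siDNMT1, 0 to 1 within decitabine and 0 to 1 for the last difference. Among uncalled changes, the sign turned for siCHD4 alone in SYCE2 (-0.049 to 0.22) and SYCP3 (-0.12 to 0.19), for STAG3 within decitabine (-0.24 to 0.048) and for SYCE2 with control siRNA plus decitabine (-0.53 to 0.14). It also turned for SYCP3 in the 3 differences (-0.045 to 0.32, -0.049 to 0.26 and -0.13 to 0.19) and in the last difference for DAZL (-0.11 to 0.038) and SYCE2 (-0.39 to 0.28).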
